A study of Solanum lycopersicum with 12 samples.

Results

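ACS2 and ACS6 encode 1-aminocyclopropane-1-carboxylate (ACC) synthases, and ETR6 encodes a receptor of ethylene. The 3 genes were taken by their symbol in the probe annotation of an Affymetrix tomato array, which gave 1 probe set each (Les.3662.1.S1_at for ACS2, Les.3769.1.S1_at for ACS6 and Les.3465.1.S1_at for ETR6), or 3 of the 10038 probe sets tested. Salt-treated and untreated tomato plants of 2 genotypes were compared, namely Moneymaker, a cultivated tomato, and PI365967, regarded as a wild tomato that tolerates salt, although the labels give Solanum lycopersicum for all samples. Plants were raised in sand, moved at 4 weeks to aerated 1/4-strength Hoagland solution, kept there for 3 d and treated when they carried 6 true leaves. The 4 groups were Moneymaker with 0 mM NaCl, Moneymaker with 200 mM NaCl, PI365967 with 0 mM NaCl and PI365967 with 200 mM NaCl, each after 5 h in fresh solution. Each group had 3 arrays, and 1 array took the RNA of 3 whole plants pooled, so the replicates are separate pools and the spread between single plants is not seen.

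Ethylene is a gaseous plant hormone made from methionine by way of S-adenosylmethionine. ACC synthase makes ACC from S-adenosylmethionine, usually the limiting step, and ACC oxidase turns ACC into ethylene. Ethylene receptors sit in the endoplasmic reticulum and repress the response through the Raf-like kinase CTR1 until ethylene binds them, after which EIN2 and the EIN3-like (EIL) transcription factors switch on target genes. In tomato fruit, ACS2 is known for the burst of ethylene at ripening and ACS6 for the low ethylene output before it, and both are known from stressed or wounded leaves. Making more receptor lowers the sensitivity of a tissue to ethylene.

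Values below are normalized intensities, that is the deposited intensities after quantile normalization of the 12 arrays. Effects are differences of mean log2(intensity + 16), which understate the change of a weak signal. Folds from these effects are ratios of intensity + 16, not of the intensities, also where they are given as measured. A value after ± is a standard error (SE) of a log2 difference from limma with 3 arrays per group, unless it is named as an SD. A probe set is called when its two-sided limma p, adjusted by the Benjamini-Hochberg method over all 10038 probe sets, is under 0.05. Because the files carry no detection calls, the 20th percentile of the probe sets of an array, about 78 in normalized intensity, served as a background level. Levels are never compared between probe sets, since each responds to its transcript with its own strength.

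Replicate arrays correlated at Pearson's r of 0.9908 to 0.9946 across probe sets. The deposited medians ran from 336.4 to 641.8 over the arrays. Leaf and root genes lay above background on all 12 arrays of the labelled whole plants, except that the root marker NRAMP1 did so on 2 of 12. The summed normalized intensity of 8 leaf markers, genes of the photosystems and plastocyanin, was 65396 to 74989 in untreated and 46598 to 50432 in salt-treated Moneymaker, and 78549 to 80549 against 65658 to 69015 in PI365967. Of the 8 root markers, genes of nutrient uptake and root peroxidases, 6 were lower and 1 was higher under salt in Moneymaker, and 5 were lower in PI365967. Their summed intensity went from 20147 to 21053 down to 16459 to 16573 in Moneymaker and from 18722 to 19549 down to 14189 to 15117 in PI365967. No marker was at 0. The 25S ribosomal RNA probe set of the array's controls gave log2 signals that were higher with salt by 1.91 in Moneymaker and by 0.82 in PI365967. These shifts moved with the salt treatment, and their part in the results below was not tested.

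All 3 genes rose under salt in both genotypes, but the call of ACS6 in PI365967 was lost under 4 of 21 alternative settings. Without salt replicate 3 of PI365967 that effect was 0.41 (limma adjusted p = 0.102). ACS2 had the largest rise of the 3 in Moneymaker and rose at least 5.44-fold in PI365967, ETR6 rose by a similar amount in the 2 genotypes, and ACS6 rose several-fold in Moneymaker but much less in PI365967. All 3 members were called higher in Moneymaker, where 57.4% of all probe sets were called, 26% higher and 31.3% lower. All 3 were called higher in PI365967 too, where 47.6% of all probe sets were called, 23.3% higher and 24.3% lower. In whole plants, a larger share of cells that use a gene and more RNA per cell cannot be told apart.

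ACS2, the ACC synthase of ripening fruit, read 94.5, 134.0 and 71.2 on the 3 untreated Moneymaker arrays and 1464, 1388 and 1292 on the 3 salt arrays. In PI365967 it read 34.3, 32.2 and 44.0 without salt and 469, 427 and 611 with salt. In each genotype every salt array lay above every control array, which held for 29.1% of all probe sets in Moneymaker and 27.4% in PI365967. At each treatment every Moneymaker array lay above every PI365967 array. The share of all probe sets separated by genotype in this way was not counted. Between genotypes, 37% of all probe sets were called without salt and 49.5% with salt. The lowest salt array of PI365967 was also above the highest untreated array of Moneymaker. The order of the group means was therefore Moneymaker with salt, PI365967 with salt, Moneymaker without salt and PI365967 without salt, with no overlap between neighbours.

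In Moneymaker, mean log2 signal of ACS2 went from 6.82 ± 0.39 (SD, n = 3) to 10.45 ± 0.09 (SD, n = 3). This was a 12.3-fold rise (log2 3.63 ± 0.18, 95% confidence interval 3.22 to 4.03, limma adjusted p = 3.94e-08), the 29th highest salt effect of 10038 probe sets. In PI365967, log2 signal went from 5.72 ± 0.17 to 9.00 ± 0.26 (SD, n = 3 each). The difference as measured was 3.28 ± 0.18 (limma adjusted p = 1.75e-07). ACS2 was below the background level on all 3 untreated arrays of PI365967 and on 1 of the 3 untreated arrays of Moneymaker. The rise in PI365967 is therefore stated as at least 5.44-fold, against 9.74-fold as measured, and its rank among all probe sets is not given.

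The salt effects of ACS2 in the 2 genotypes differed by -0.34 ± 0.26 in log2 (PI365967 minus Moneymaker), with an interval from -0.91 to 0.23 and a limma adjusted p of 0.43. The difference was not called, and the interval still allows the rise in PI365967 to be nearly 1 log2 unit smaller. The interval takes the readings below background as they stand, so it does not cover the uncertainty of those readings. With 64 in place of 16 added to the intensity before the logarithm, the difference became -0.68 (adjusted p = 0.0319), so the size of this contrast depends on how the low control signal is treated. Over 19 alternatives the difference ran from -0.68 to -0.08, with limma adjusted p from 0.0319 to 0.921, and 18 of them left it uncalled. Between genotypes at the same treatment, ACS2 was lower in PI365967 by -1.10 ± 0.18 without salt (limma adjusted p = 0.000781) and by -1.45 ± 0.18 with salt (2.72-fold, limma adjusted p = 7.39e-05). Without salt the genotypes differed at least 1.20-fold, and 2.15-fold as measured. A genotype difference on a probe set also depends on how well the probes match the transcripts of each genotype.

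ACS6, the ACC synthase of low, basal ethylene output, read 153, 142 and 192 on the untreated Moneymaker arrays and 1795, 1127 and 1208 on the salt arrays. In PI365967 it read 195, 169 and 171 without salt and 225, 261 and 474 with salt. The Moneymaker salt arrays stood far above the 9 others, and the highest of the others was salt replicate 3 of PI365967. The PI365967 salt arrays lay just above their controls after normalization, a separation that held for 27.4% of all probe sets. In the deposited intensities they overlapped: replicates 1 and 2 with salt read 204.6 and 210.5, below the untreated replicate 1 at 222.6, while replicate 3 with salt read 581.8.

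In Moneymaker, ACS6 rose 7.69-fold (log2 2.94 ± 0.25, interval 2.40 to 3.48, limma adjusted p = 1.43e-06), from 7.47 ± 0.20 to 10.41 ± 0.36 in mean log2 signal (SD, n = 3 each). In PI365967 the rise was 1.65-fold (log2 0.72 ± 0.25, interval 0.18 to 1.26, limma adjusted p = 0.0308), from 7.60 ± 0.11 to 8.32 ± 0.54 (SD, n = 3 each). The SD of the PI365967 salt arrays was the widest of the 12 group SDs of the 3 genes. Replicate 3 lay 0.82 above the next array in log2, a gap that only 0.289% of all probe sets reached, although replicate 3 was the highest salt array of PI365967 for 34.0% of them. Without that array the effect was 0.41 with an adjusted p of 0.102, and the call was also lost when untreated replicate 2 (0.69, adjusted p = 0.0775) or 3 (0.69, adjusted p = 0.0773) was left out. The same array had the highest 25S ribosomal RNA signal of its group, with log2 values of 5.99, 6.44 and 7.36 on salt replicates 1, 2 and 3, and the part of this in the result was not tested. In Moneymaker the salt arrays read 7.13, 8.10 and 8.05 for 25S ribosomal RNA, and the array with the lowest of these had the highest ACS6.

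The salt effect of ACS6 was smaller in PI365967 than in Moneymaker, with a log2 difference of -2.22 ± 0.35 (interval -2.98 to -1.46, limma adjusted p = 0.00222), a ratio of 4.66. Only 1 of the 3 genes was called in this contrast, in which 13.4% of all probe sets were called and 7.15% were called lower, and ACS6 had the 25th lowest value of 10038. Without salt replicate 3 of PI365967 the difference was -2.53 (adjusted p = 0.000412). Without salt the genotypes differed by 0.13 ± 0.25 in ACS6 (interval -0.41 to 0.67, limma adjusted p = 0.724), which was not called. Under salt PI365967 lay 4.26-fold lower (log2 -2.09 ± 0.25, limma adjusted p = 4.14e-05). The order of the means was Moneymaker with salt, PI365967 with salt, then the untreated groups of PI365967 and Moneymaker, which did not differ beyond their spread.

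ETR6, the receptor gene, read 192, 229 and 166 on the untreated Moneymaker arrays and 845, 1067 and 828 on the salt arrays. In PI365967 it read 118, 104 and 99.7 without salt and 740, 690 and 694 with salt. All salt arrays lay above all controls in both genotypes, and at each treatment the PI365967 arrays lay below those of Moneymaker without overlap, by a narrow margin under salt. A full separation of salt above control arrays occurred for 29.1% of all probe sets in Moneymaker and 27.4% in PI365967. The share of all probe sets separated by genotype was not counted. The order of the means was the same as for ACS2.

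ETR6 rose 4.39-fold in Moneymaker (log2 2.13 ± 0.12, interval 1.86 to 2.41, limma adjusted p = 9.32e-08), from 7.72 ± 0.21 to 9.85 ± 0.20 (SD, n = 3 each). It rose 5.87-fold in PI365967 (log2 2.55 ± 0.12, interval 2.28 to 2.83, limma adjusted p = 7.03e-08), from 6.95 ± 0.11 to 9.50 ± 0.05 (SD, n = 3 each). These were the 213th and the 54th highest salt effects. The difference between the genotypes was 0.42 ± 0.17 (interval 0.04 to 0.80), with an unadjusted p of 0.0349 and a limma adjusted p of 0.14, and was not called. Without salt ETR6 was lower in PI365967 by -0.77 ± 0.12 (1.71-fold, limma adjusted p = 0.000589). Under salt the gap was -0.35 ± 0.12 (1.28-fold, limma adjusted p = 0.0343), and this call was lost without Moneymaker salt replicate 2 (-0.24, adjusted p = 0.14) or without PI365967 salt replicate 1 (-0.38, adjusted p = 0.0519), 2 (-0.33, adjusted p = 0.0854) or 3 (-0.34, adjusted p = 0.0783).

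In the 2 genotype contrasts, ACS2 and ETR6 were called lower in PI365967 without salt, and all 3 genes were called lower with salt. Of all probe sets, 37% were called without salt and 17.8% were called lower, and 49.5% were called with salt and 22.7% were called lower.

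**Figure D1:**
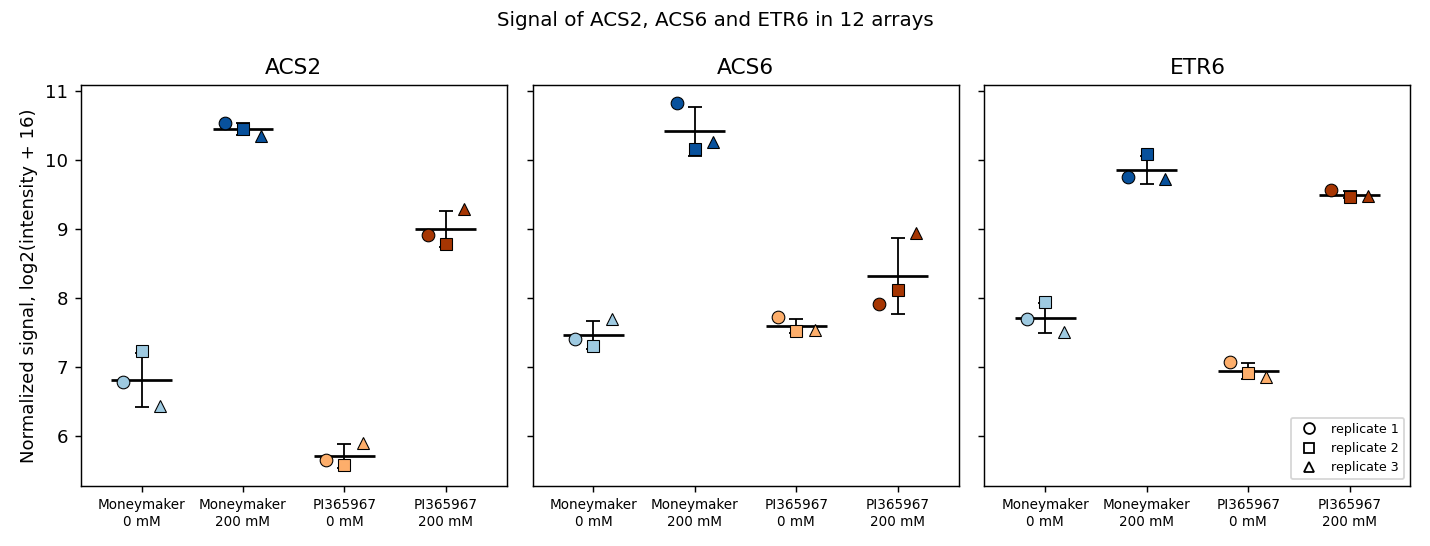
Normalized signal, log2(intensity + 16), of ACS2, ACS6 and ETR6 on each of the 12 arrays, by genotype and NaCl concentration; marker shape gives the replicate, horizontal lines are means and bars are SDs of 3 arrays. The salt arrays lie above the controls in every panel, and for ACS6 in PI365967 the rise is small, with replicate 3 standing 0.82 above the next array.

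**Figure D2:**
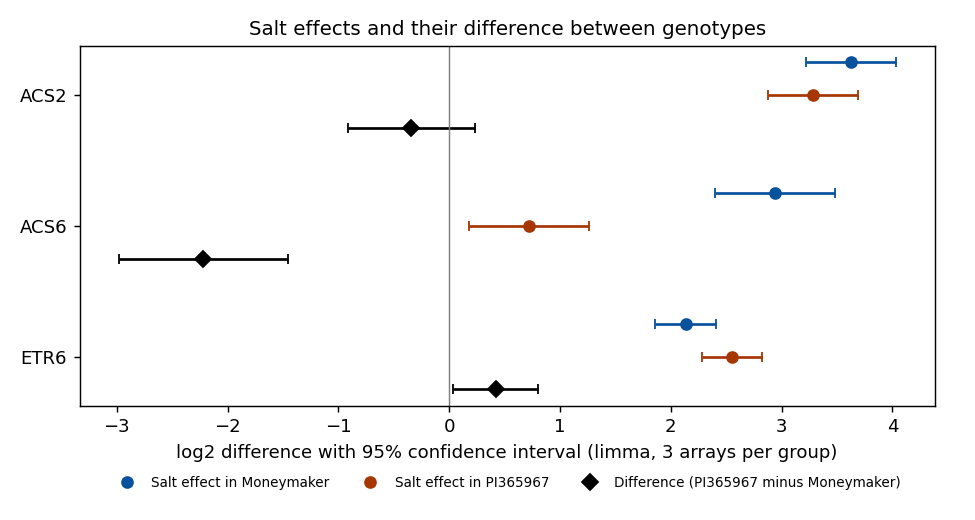
Salt effects (200 mM minus 0 mM NaCl, log2 difference) in each genotype and their difference (PI365967 minus Moneymaker), with 95% confidence intervals from limma, 3 arrays per group. The interval of the difference includes 0 for ACS2, lies between -2.98 and -1.46 for ACS6 and begins at 0.04 for ETR6, which was not called after adjustment.

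The authors' deposited table, a significance analysis of microarrays (SAM) made from their other log2 values of these arrays, gives ratios of salt over control for the same probe sets. For ACS2 the authors' deposited table lists 12.8 in Moneymaker and 8.43 in PI365967. For ACS6 the authors' deposited table lists 7.69 in Moneymaker and 1.67 in PI365967, the latter with a q-value of 0.221%. For ETR6 the authors' deposited table lists 3.86 and 4.73. The direction and the order of the genotypes were those found above for each gene.

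The rest of the ethylene pathway was read from 39 other probe sets of 36 genes. In Moneymaker 19 of them were called higher, 9 lower and 11 not at all, where 57.4% of all probe sets were called, with a median salt effect of 0.28 in log2 against -0.05 over all probe sets. In PI365967 14 were called higher, 5 lower and 20 not at all, where 47.6% of all were called, with a median of 0.12, where that of all probe sets was close to 0. In the difference of salt effects 3 were called higher and 5 lower in PI365967, and 31 were not called, where 13.4% of all were called. The median difference was -0.06, against 0.05 over all probe sets.

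At the first step, of the 2 S-adenosylmethionine synthetase genes, SAM3 fell by 0.21 in Moneymaker and showed 0.13 in PI365967, which was not called. The fall lost its call under 5 of 21 alternatives, among them median centring (-0.13, adjusted p = 0.243) and without Moneymaker salt replicate 1 (-0.17, adjusted p = 0.0638). SAM1 was not called in either genotype. Of the 6 other ACC synthase genes, 4 were called higher in Moneymaker and 2 in PI365967, and none was called lower. Over all probe sets, 26% were called higher in Moneymaker and 23.3% in PI365967. ACS3 rose by 2.34 ± 0.13 in Moneymaker (limma adjusted p = 8.68e-08) and by 1.13 ± 0.13 in PI365967 (limma adjusted p = 3.89e-05), and these differed by -1.21 ± 0.19 (limma adjusted p = 0.00224). ACS3 was above background on 9 of 12 arrays and below it on the 3 untreated Moneymaker arrays. Its rise there was therefore at least 3.25-fold, against 5.05-fold as measured, and the rise in PI365967 was 2.18-fold. The size of the difference of salt effects is not settled for the same reason. Without salt ACS3 was at least 1.29-fold higher in PI365967 than in Moneymaker, and 2.00-fold as measured. ACS1A, known with ACS6 from the time before ripening, rose by 1.42 ± 0.10 and 0.86 ± 0.10, and the difference of -0.56 ± 0.15 had a limma adjusted p of 0.0291. Dropping a single array ended this call in 6 cases (Moneymaker untreated replicate 3 or salt replicate 1 or 2, PI365967 untreated replicate 1 or 2 or salt replicate 1; adjusted p = 0.0527 to 0.0694). ACS7 and ACS4, a ripening gene like ACS2, were called higher in Moneymaker, but both stood above background on 0 of 12 arrays, so no size is given. ACS5 and ACS8 were above it on 0 of 12 arrays too and were not called. Counted with these, 3 ACC synthase genes (ACS6, ACS3 and ACS1A) had called differences of salt effects of the same sign, that of ACS1A subject to the arrays just named. Of all probe sets, 13.4% were called in this contrast and 7.15% were called lower. The 3 did not share 1 pattern. Between genotypes, ACS3 differed by 1.00 without salt (limma adjusted p = 0.000169) and by -0.21 under salt, not called (limma adjusted p = 0.217). ACS6 differed by 0.13 without salt, not called, and by -2.09 under salt. The difference of salt effects of ACS2 was called only with the pseudocount of 64.

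Of the 5 ACC oxidase probe sets of 3 genes, 1 was called higher and 3 were called lower in each genotype. Over all probe sets, 26% were called higher and 31.3% lower in Moneymaker, and 23.3% higher and 24.3% lower in PI365967. The 3 probe sets of ACO6 fell in both genotypes, by 0.44, 0.56 and 0.63 in Moneymaker and by 0.31, 0.59 and 0.65 in PI365967. The call of 0.31 was lost under 7 of 21 alternatives, among them leaving out any untreated replicate of PI365967 or its salt replicate 1 or 2 (-0.32 to -0.24, adjusted p = 0.0544 to 0.103). ACO4 rose by 0.54 in Moneymaker and by 0.47 in PI365967, and it was lower in PI365967 by -1.19 without salt and by -1.25 with salt. ACO5 was not called. All of these lay above background on 12 of 12 arrays.

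Among the 5 other receptor probe sets, 3 rose in each genotype, where 26% (Moneymaker) and 23.3% (PI365967) of all probe sets were called higher. ETR4 rose 2.25-fold in Moneymaker (log2 1.17 ± 0.10, limma adjusted p = 1.64e-06) and 1.88-fold in PI365967 (0.91 ± 0.10, limma adjusted p = 1.9e-05). The gene LOC544279, for which RefSeq lists the synonym ETR3, rose by 0.62 and 0.71, and ETR1 by 0.30 and 0.32. ETR2 fell by 0.50 in Moneymaker and showed -0.20 in PI365967, which was not called, and ETR5 was not called in either genotype. ETR6 thus had the highest salt effect of the 6 receptor probe sets in both genotypes. Like ETR6, none of the 5 had a called difference between the genotypes, with values from -0.25 to 0.30. In this contrast 13.4% of all probe sets were called.

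Downstream of the receptors, 3 of 5 CTR kinase probe sets rose in Moneymaker and 1 in PI365967. The shares of all probe sets called higher were 26% and 23.3%. CTR1 rose by 1.18 in Moneymaker and showed 0.12 in PI365967, and the difference of -1.06 ± 0.16 was called (limma adjusted p = 0.00146). Its identifier ends in _s_at, so it can take signal from related transcripts. TCTR2 rose by 0.52 and 0.45, and CTR4 by 0.59 in Moneymaker. EIN2, the membrane protein that carries the signal on, fell by 0.34 in Moneymaker and showed -0.09 in PI365967. Of the EIN3-like factors, EIL3 rose by 0.78 and 0.53 and EIL1 by 0.24 in Moneymaker, EIL2 fell by 0.27 in Moneymaker and EIL4 fell by 0.31 in PI365967. The fall of EIL2 lost its call under 2 of 21 alternatives. With the authors' other log2 values it was -0.06 (limma adjusted p = 0.32).

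Of 11 probe sets of genes first described as ethylene-regulated in fruit, 6 were called higher in each genotype. Another 2 were called lower in Moneymaker and 1 in PI365967. Of all probe sets, 26% were called higher and 31.3% lower in Moneymaker, and 23.3% higher and 24.3% lower in PI365967. Those of the 11 called higher include E8, a ripening gene above background on 1 of 12 arrays. ER24, a transcriptional coactivator gene, rose by 3.98 in Moneymaker and 2.13 in PI365967 (difference -1.85 ± 0.32, limma adjusted p = 0.00419). ER5, which encodes a late embryogenesis abundant-like protein, rose by 3.19 and 2.62. One ER21 probe set rose by 1.86 and 2.09, and the other was called higher in both genotypes but lay above background on 0 of 12 arrays, and its call in PI365967 was lost under 6 of 19 alternatives. In the difference between genotypes, ER66 (-0.44) and ER69 (0.33) were called besides ER24, and both are named here after their values were seen. Salt lowered ER69 in Moneymaker, a call lost under 2 of 21 alternatives. The called difference of ER69 was lost under 12 of 19 alternatives, among them the replicate block (0.33, adjusted p = 0.0522), and that of ER66 under 3.

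**Figure D3:**
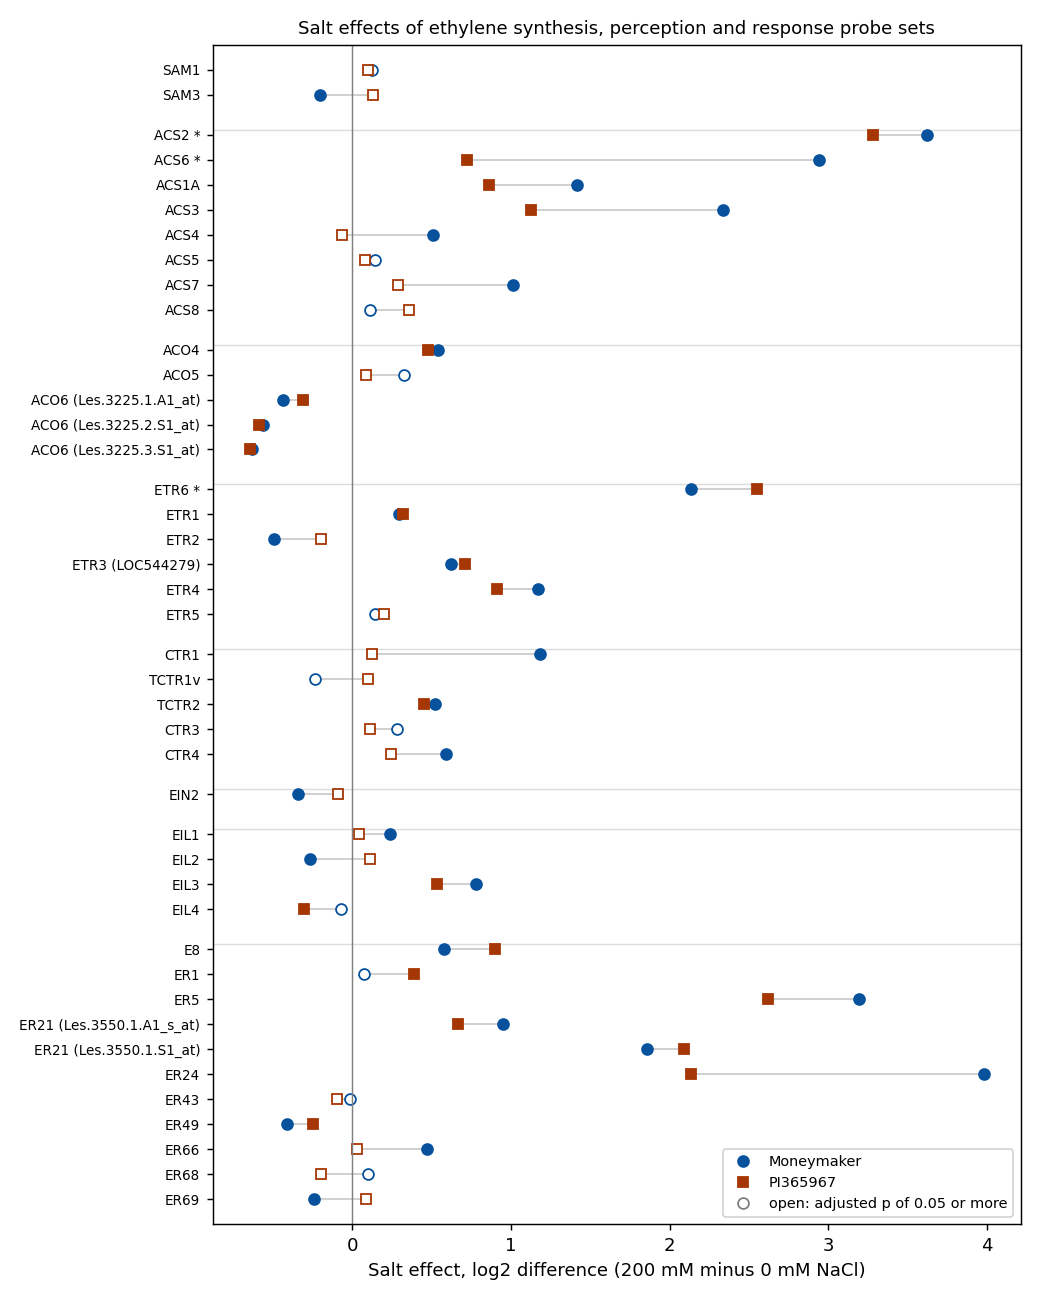
Salt effect (200 mM minus 0 mM NaCl, log2 difference) of each ethylene probe set in Moneymaker (circles) and PI365967 (squares), grouped by role from S-adenosylmethionine synthetases at the top to ethylene-regulated genes at the bottom; ACS2, ACS6 and ETR6 carry a star, and open markers were not called. The ACC synthases ACS6 and ACS3, CTR1 and ER24 show long gaps between the genotypes, while the 2 markers of each ETR gene lie within 0.42 of each other. ACS4, ACS5, ACS7, ACS8, TCTR1v and the upper ER21 probe set were below background on all 12 arrays. ACS3 was below it on the 3 untreated Moneymaker arrays, so the length of its gap is not settled.

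The named genes whose array profiles came closest to each member were found by the root mean square (RMS) distance in log2 over the 12 arrays, after subtracting each probe set's own mean, among 699 other probe sets with a gene name. The values describe likeness only, and since the salt contrast dominates the 12 arrays, near profiles share it. A profile flat over the 12 arrays lies 1.85 from ACS2, 1.21 from ACS6 and 1.22 from ETR6. The medians given below are close to these distances, so they mostly reflect how far each member itself moved. ACS2 and ACS6 lay 1.00 apart, ACS2 and ETR6 0.71, and ACS6 and ETR6 0.82.

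Nearest to ACS2 were NCED1, whose enzyme starts abscisic acid synthesis by cleaving carotenoids, at 0.46, ER5 at 0.61 and ER24 at 0.65, against a median of 1.88 over the 699. NCED1 rose by 3.58 in Moneymaker and 3.66 in PI365967.

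Nearest to ACS6 were PTI5, an ethylene response factor that binds the kinase Pto, at 0.36, the transcription factor NAC1 at 0.40 and loxD, a lipoxygenase of jasmonate synthesis, at 0.45, against a median of 1.25. PTI5 rose by 2.76 and 0.71, NAC1 by 2.40 and 0.83, and loxD by 2.59 and 1.39, in Moneymaker and PI365967 in turn. On salt replicates 1, 2 and 3 of PI365967 the normalized intensity of NAC1 was 2615, 2652 and 3910, that of PTI5 was 719, 657 and 810, and that of loxD was 1874, 1672 and 1675. NAC1 shared the high replicate 3 of ACS6, with a gap of 0.56 over the next array that 1.48% of probe sets reached, PTI5 had a gap of 0.17, and for loxD replicate 3 was not the highest. Without quantile normalization loxD gave way to DGK1 (0.48), and the other 8 neighbours of the 3 genes were unchanged.

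Nearest to ETR6 were CHI17, a chitinase gene, at 0.25, ER21 at 0.27 and GABA-TP1, a transaminase of 4-aminobutyrate, at 0.34, against a median of 1.26. CHI17 rose by 2.08 and 2.45 and GABA-TP1 by 1.87 and 1.86.

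**Figure D4:**
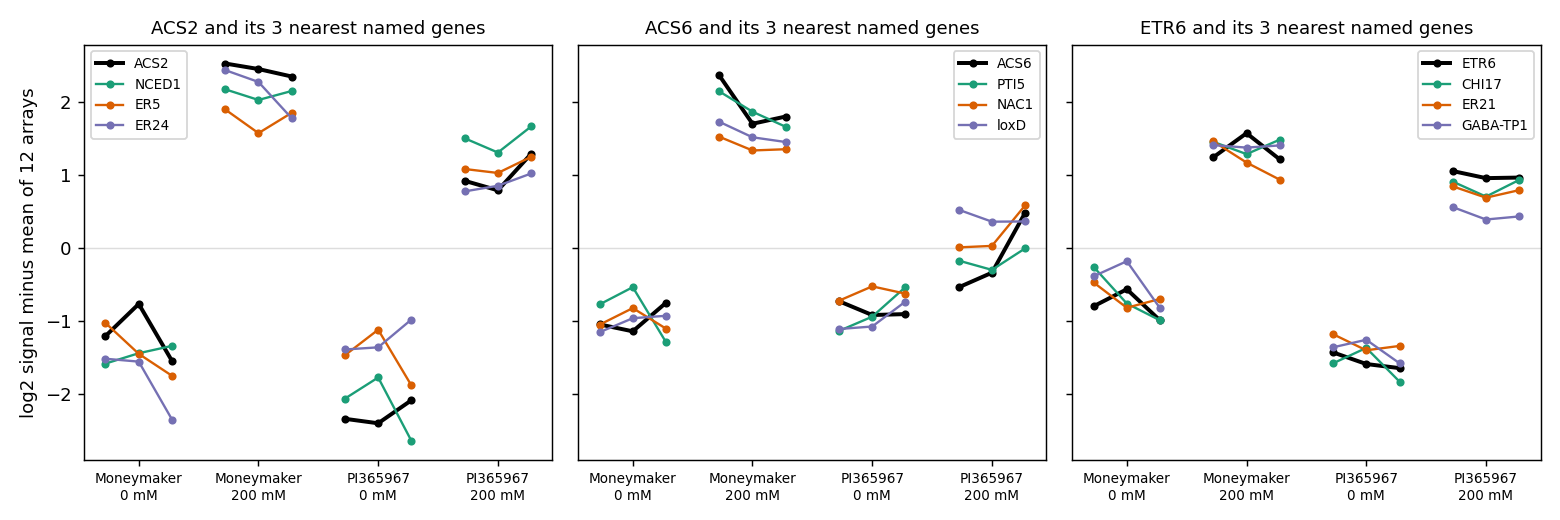
Log2 signal minus the mean of the 12 arrays for ACS2, ACS6 and ETR6 (black) and the 3 nearest named genes of each (colours); the 3 points of a group are replicates 1, 2 and 3, joined only to guide the eye. The ACS6 panel shows high Moneymaker salt arrays and PI365967 salt arrays near the mean, while in the ACS2 and ETR6 panels the salt arrays of both genotypes lie above the mean.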

How the data were processed

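Per the labels, biotin-labelled complementary RNA from total RNA was hybridised to 12 single-colour Affymetrix arrays. The authors deposited 1 linear intensity per probe set and array, and how probes were summarised is not given in the sources used here. Per the file headers, the authors also deposited, for 8085 probe sets of each genotype, log2 values and a SAM table with a score, a log2 difference, a ratio (fold) and a q-value in percent, used only as an alternative and for comparison.

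Of 10209 probe sets, 108 control and 63 reporter or vector probe sets were left out. Intensities became log2(intensity + 16). Array medians differed by 0.89 in log2, above the 0.2 set for it, so the arrays were quantile normalized. Linear models with 4 group means were fitted to the 12 arrays (limma 3.58.1 in R 4.3.3, lmFit and eBayes, 8 residual and 3.12 prior degrees of freedom), with 5 contrasts, and tested on simulated data. The number of arrays limits the precision, with a median SE of 0.113, or 0.16 for the difference of salt effects.

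Members, pathway and marker lists were chosen with earlier results of these data known. In the pathway, up to 4 called probe sets per role with the largest salt effects were named, as were the 3 nearest named genes of each member. Symbols come from the platform annotation (909 probe sets, 885 matched to RefSeq by gene identifier). Alternatives were median centring, no normalization, a pseudocount of 1 or 64, a filter on low signal, the replicate block, each array left out, only the 6 arrays compared, the authors' second values and, chosen after seeing the data, reporter probe sets kept.

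Same-numbered arrays deviated from their group means with correlations of -0.13 to 0.16 over 12 pairs. Every pair was above 0.1 only between the 2 control groups, a hint from the data and not from the labels that the numbers pair samples there. The main fit paired no samples, and the replicate block, an alternative, used the number in all 4 groups. The hint is weak, since arrays with different numbers reached similar values. Examples are 0.15 for PI365967 untreated replicate 3 with salt replicate 2, and -0.14 for Moneymaker salt replicate 2 with PI365967 salt replicate 3. The block changed no member's call.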

Additional observations from a re-analysis of the deposited data

Results flagged for a closer look

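Several salt effects differed between the genotypes in the test of the difference itself (PI365967 minus Moneymaker, limma, 3 arrays per group). ACS6 had -2.22 ± 0.35. Its 3 salt arrays of PI365967 lay below all 3 of Moneymaker, in a genotype contrast where 22.7% of all probe sets were called lower. The share of all probe sets separated in this way was not counted. Among the other ethylene genes the difference was -1.21 for ACS3, -0.56 for ACS1A, -1.06 for CTR1, -1.85 for ER24 and -0.44 for ER66, and it was 0.34 for SAM3, 0.38 for EIL2 and 0.33 for ER69. Adjusted p-values of these 8 ran from 0.00146 for CTR1 to 0.0333 for EIL2. ACS3 lay below background on the 3 untreated Moneymaker arrays, so the size of its difference is not settled. The 3 genes nearest to ACS6 had -2.05 (PTI5, adjusted p = 0.00119), -1.57 (NAC1, adjusted p = 0.000745) and -1.19 (loxD, adjusted p = 0.00108), and since they were picked for a profile like that of ACS6, their sign is no separate evidence.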

How the results depend on the processing

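Of 303 alternative values of the 15 member effects, 292 kept their direction and their side of the threshold. The count includes runs that left out an array of a group outside the contrast, where the effect hardly moved. It also includes the replicate block, which left each effect as it was. Without normalization between arrays, the genotype difference of ACS6 without salt turned from 0.13 to -0.20 (adjusted p = 0.66, not called under either setting), and that of ETR6 under salt was -0.34 and no longer called (adjusted p = 0.422). In that setting the probe sets called were 3532 for salt in Moneymaker (28.3% of them higher, against 45.4%), 1983 for PI365967, 292 for the difference (60.3% higher, against 46.6%, and 34.9% with median centring), 1584 for genotype without salt (18.7% higher, against 51.8%) and 2019 under salt. The main counts were 5758, 4781, 1344, 3717 and 4968. With a pseudocount of 64, the difference of salt effects of ACS2 was -0.68 (adjusted p = 0.0319) and became a call. In 18 of 19 alternatives it stayed uncalled, and the value nearest to 0 was -0.08. With only the 6 arrays compared, the ACS6 effect in PI365967 stayed at 0.72 but was not called (adjusted p = 0.0543). Leaving out 1 array at a time gave 0.41 to 0.92 for ACS6 in PI365967 and -0.42 to -0.24 for ETR6 between genotypes under salt, with calls lost in 3 and 4 cases, and 941 to 1381 calls for the difference. The cause of these changes was not tested, except that leaving out arrays or using 6 of them means fewer samples.

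With the replicate number as a block, the difference for ACS6 was -2.22 (adjusted p = 0.0046), its effect in PI365967 was 0.72 (adjusted p = 0.0337) and that of ETR6 under salt between genotypes was -0.35 (adjusted p = 0.0249). Between genotypes without salt, the block gave -1.10 for ACS2 (limma adjusted p = 0.00285) and -0.77 for ETR6 (limma adjusted p = 0.000687). The counts called were 5741, 4735, 1211, 3658 and 4890, and no member's call changed, while the difference of ER69 lost its call (0.33, adjusted p = 0.0522). By the labels the arrays of a block shared only a number, with a weak hint of pairing between the 2 control groups. Of 65 called effects of the other named genes, 34 were kept under every alternative and 0 reversed. The differences of SAM3, EIL2 and ER69 were lost under 10, 11 and 12 of 19 alternatives, that of ACS1A under 7 and that of ER66 under 3. Those of ACS3, CTR1 and loxD were lost only without normalization between arrays (limma adjusted p = 0.214, 0.344 and 0.234). The Moneymaker effect of SAM3 was lost under 5 of 21, and that of 1 ACO6 probe set in PI365967 under 7. Signal near background limits ACS2 in untreated PI365967. ACS2 was above background on 8 of 12 arrays in all and on 12 or 6 with the 10th or 30th percentile as the level. At the 30th, ETR6 was above on 0 of 3 untreated PI365967 and 2 of 3 untreated Moneymaker arrays, and ACS6 on 1 of 3 in each control group. ACS2 was above it on 0 of 3 untreated arrays of Moneymaker and 0 of 3 of PI365967. At that level the ETR6 rise in PI365967 and the ACS2 rise in Moneymaker would also be only lower bounds. All 3 genes were above the 95th percentile of the 63 reporter probe sets on 12 of 12 arrays.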
